A study of Mus musculus with 2 samples.

Results

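The genes described here encode the constant regions of mouse antibodies and the chain that joins antibody units, 10 of the 32285 genes in the count matrices. They were taken by symbol: the heavy chains Ighm, Ighd, Ighg1, Ighg2b, Ighg2c and Igha, the light chains Igkc, Iglc1 and Iglc2, and the joining chain Jchain. All 10 symbols matched 1 row each. Their transcripts were counted as unique molecular identifiers (UMIs, which count each captured RNA molecule once) in single cells of hindlimb muscle.

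The mice were female C57Bl/6J animals of 24 months. One group received intramuscular injections of all-trans retinoic acid (ATRA) with CD3254, an agonist of the retinoid X receptor, and BMS961, an agonist of retinoic acid receptor gamma. The other group received the DMSO vehicle. Injections were given on 3 alternating days, the quadriceps and gastrocnemius were digested, and cells from a propidium iodide sort were pooled from 2 mice per group into 1 library. There is therefore 1 library per group, no replicate check of any difference, and no p-value. The intervals given are 95% intervals that cover counting error only, and animals pooled in a library cannot be separated.

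An antibody is built from paired heavy and light chains. A naive B cell transcribes Ighm and Ighd together from 1 rearranged locus and carries the products on its surface as the B-cell receptor, and class switching later replaces them with an Ighg, Igha or Ighe constant region. Each B cell normally uses either the kappa light chain, encoded by Igkc, or a lambda chain, encoded by Iglc1, Iglc2 or Iglc3. When B cells become plasma cells they make very large amounts of secreted antibody, and Jchain links secreted IgM and IgA units into polymers.

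In GRCm38 (GENCODE M21) the heavy-chain constant genes lie in a row on the minus strand of chromosome 12, from Igha at chr12:113254830-113260236 through Ighg2c at chr12:113285325-113288932, Ighg2b at chr12:113302965-113307933 and Ighg1 at chr12:113325240-113330523 to Ighd at chr12:113406604-113416324 and Ighm at chr12:113418558-113422730. Igkc lies on the plus strand at chr6:70726435-70726966, where the annotation also places Gm30211. Iglc1 (chr16:19061618-19062071) and Iglc2 (chr16:19198396-19200351) lie on the minus strand of chromosome 16, and Jchain is on the minus strand at chr5:88519809-88527891.

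The lambda genes are shown because counts can be split between them. The last 90 coding bases before the stop codon are given below from GENCODE M21, each read from the minus strand of chromosome 16 (Iglc1 chr16:19061755-19061844, Iglc2 chr16:19198539-19198628, Iglc3 chr16:19065368-19065457). Capitals mark positions where the 3 genes are not all alike.
Iglc1: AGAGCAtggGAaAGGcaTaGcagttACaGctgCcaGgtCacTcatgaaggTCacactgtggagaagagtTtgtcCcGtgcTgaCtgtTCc
Iglc2: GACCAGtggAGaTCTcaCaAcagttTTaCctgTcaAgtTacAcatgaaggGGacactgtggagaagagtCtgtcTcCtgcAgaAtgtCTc
Iglc3: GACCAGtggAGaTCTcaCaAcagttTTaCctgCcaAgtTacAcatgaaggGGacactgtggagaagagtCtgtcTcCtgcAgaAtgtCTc
Iglc2 and Iglc3 differ at 1 of these 90 positions and share an unbroken run of 79 bases in their transcripts, whereas Iglc1 differs from Iglc2 at 29 positions and shares no run longer than 19 bases with it. How the counting divided reads between Iglc2 and Iglc3 is not known, so their separate values are uncertain, while their distance from Iglc1 is large. Ighg2b and Ighg2c share a run of 78 bases, and the same caution applies to low counts of either.

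The secreted tails are shown because Jchain binds them. The secreted forms of Ighm and Igha continue for 59 coding bases beyond the splice site that leads to the membrane exons, on the minus strand of chromosome 12 at chr12:113420870-113420928 and chr12:113258771-113258829. Capitals mark the 19 positions at which the pair differs.
Ighm: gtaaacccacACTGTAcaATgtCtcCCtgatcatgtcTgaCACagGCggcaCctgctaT
Igha: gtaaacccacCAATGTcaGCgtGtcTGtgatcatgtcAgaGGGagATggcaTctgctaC
The secreted forms of Ighg2b and Ighg2c continue for only 5 coding bases and lack this tail. Counts per gene do not separate the secreted from the membrane form.

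Of the barcodes in the matrices, 13860 passed the filters on genes, mitochondrial and hemoglobin transcripts and doublets: 6907 in the ATRA+agonist library, with a median of 4699 UMIs, and 6953 in the vehicle library, with a median of 4845. The libraries shared 43 barcode sequences, 10 of them among the cells kept. Clustering without any immunoglobulin gene gave 25 clusters, of which 2 carried the markers of the B lineage, led by Cd79a, Bank1, Satb1 and Ly6d in one and by Cacna1e, Il5ra and Mzb1 in the other. All 11 B-lineage markers reached 10 UMIs in these cells of both libraries, with a summed level of 11394 UMIs per 1000000 UMIs (CPM) in the ATRA+agonist library and 9919 CPM in the vehicle library, against 1454 and 1530 CPM in the other cells. The 9 T or NK cell markers summed to 30.6 and 133 CPM there, against 253 and 86.0 CPM in the other cells, so their level was higher in the vehicle B-lineage-like cells than in the other vehicle cells. Of these markers 6 (Cd3d, Cd3e, Cd3g, Trac, Trbc2 and Cd8a) were at 0 UMIs in the vehicle B-lineage-like cells. The vehicle level thus came from Nkg7, Il7r and Lck, and 2 of the markers had 10 UMIs. None of the T or NK cell markers was at 0 in the B-lineage-like cells of the ATRA+agonist library. The 9 macrophage markers summed to 17.1 and 5.65 CPM, against 1210 and 899 CPM in the other cells, with 3 of them at 0 UMIs with ATRA+agonist and 8, Adgre1 and C1qa among them, with vehicle. The 9 markers of myonuclei summed to 149 and 25.4 CPM, against 1932 and 56.2 CPM. Their part in the results was not tested.

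B-lineage-like cells were 640 of 6907 cells in the ATRA+agonist library (9.27%, exact binomial interval 8.59 to 9.97) and 59 of 6953 in the vehicle library (0.849%, 0.647 to 1.09), a ratio of 10.9 (8.38 to 14.2). The ratio moved with the processing. It was 3.88 without doublet removal and 5.17 with cells assigned by their own markers. It was 24.9 without the hemoglobin filter and 313 with 15% of cells removed as doublets. Of the cells added without doublet removal, 182 of 200 with ATRA+agonist and 135 of 159 with vehicle held no Cd79a UMI. None of the 46 and 76 cells added by their own markers held one. Other settings added vehicle cells that did. With at least 500 genes, 21 cells were added with vehicle, 0 of them without a Cd79a UMI, and 0 with ATRA+agonist. Under 10% mitochondrial UMIs, 22 were added with vehicle, 1 of them without a Cd79a UMI, and 1 with ATRA+agonist. The B-lineage-like vehicle cells were then 79 and 80. The vehicle number was small and depended on doublet removal: at a doublet rate of 15% only 9 of the 59 vehicle cells were kept, against 636 of the 640 in the other library. Without the hemoglobin filter, with doublets removed at 7.5%, 21 of the 59 were kept, against 639 of the 640. The 640 and 59 B-lineage-like cells held 174530 UMIs of the 10 genes with ATRA+agonist and 34471 with vehicle, out of 176490 and 35417 over all cells kept.

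Most of these UMIs came from 12 cells. Of the 9 plasma cell markers Sdc1, Prdm1, Xbp1, Derl3, Tnfrsf17, Irf4, Txndc5, Fkbp11 and Sec11c, 12 B-lineage-like cells had 6 or more detected, 9 cells in the ATRA+agonist library and 3 in the vehicle library. They are called plasma-like here, with the limit of 6 set after the counts had been seen. The other 687 cells had at most 5 markers. The plasma-like cells held between 6676 and 24798 UMIs of the 10 genes each, with a median of 16156.5, and no other B-lineage-like cell held more than 259, with a median of 37. The plot of UMIs by plasma markers shows no cell between these ranges in either library.

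**Figure D1:**
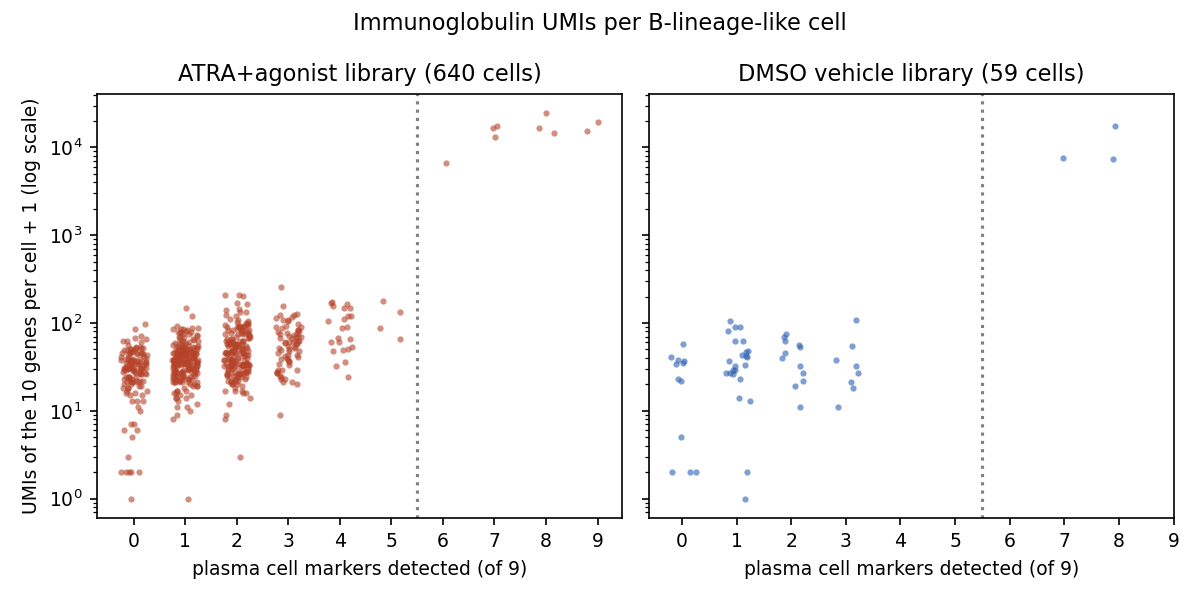
UMIs of the 10 genes per B-lineage-like cell (log scale, 1 added) against the number of plasma cell markers detected out of 9, 1 point per cell with horizontal jitter, for the 640 ATRA+agonist cells and the 59 vehicle cells. The 12 cells to the right of the dotted line hold 6676 to 24798 UMIs, and all others hold 259 or fewer.

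The plasma-like cells were 1.72% of the B-lineage-like cells and held 84.9% of the UMIs of the 10 genes in them, 83.1% in the ATRA+agonist library and 94.0% in the vehicle library. For Jchain they held 7235 of 7238 UMIs. For Ighg2c they held 4537 of 4538 UMIs, and for Ighg2b 3423 of 3448. For Igkc their share was 88.3% and for Ighm 75.4%. For Iglc1 it was 16.3% and for Iglc2 21.9%, and for Ighd it was 0 of 1878 UMIs. Ighg2b, Ighg2c and Jchain were thus counted almost entirely in these few cells, whereas Ighd and lambda UMIs lay mainly in the rest.

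In the plasma-like cells the 10 genes made up 41.9% to 63.8% of all UMIs of a cell, against at most 4.10% in any other B-lineage-like cell. Igkc alone took 30.9% to 52.4%. The 9 ATRA+agonist cells held 21203, 14092, 14386, 12916, 13109, 12533, 10596, 8934 and 4889 Igkc UMIs, in order of their summed UMIs, and the 3 vehicle cells held 14268, 5614 and 6051. The ranges of the libraries overlapped. Lambda UMIs (Iglc1, Iglc2 and Iglc3) were 0.311% to 2.05% of the light-chain UMIs per cell, so all 12 were classed as kappa.

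By heavy chain, 9 of the 12 cells were Ighm cells and 3 had switched. The 7 Ighm cells of the ATRA+agonist library held 3635, 2817, 2986, 2401, 2941, 2864 and 1414 Ighm UMIs, and the vehicle pair held 2303 and 1414. Every one of them was at 0 for Ighd, Ighg2b and Ighg2c. The first ATRA+agonist cell held 3487 Ighg2c UMIs, the fifth 3423 Ighg2b UMIs and the third vehicle cell 1050 Ighg2c UMIs, each with 0 Ighm UMIs. Each plasma-like cell was therefore of a single heavy-chain class, with the other heavy chains at 9 UMIs or fewer.

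Jchain, which links IgM and IgA but not IgG, differed in level between these cells. In the Ighm cells of the ATRA+agonist library it had 1693, 124, 808, 533, 1095, 1107 and 337 UMIs, and in those of the vehicle library 782 and 559. The switched cells held 12 and 41 UMIs in the treated library and 144 in the vehicle library. The highest of the switched cells (144) lay above the lowest Ighm cell (124), so the ranges overlapped, with medians of 782 over 9 cells and 41 over 3 cells. No test was made, because these are cells of 2 libraries and not replicates.

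**Figure D2:**
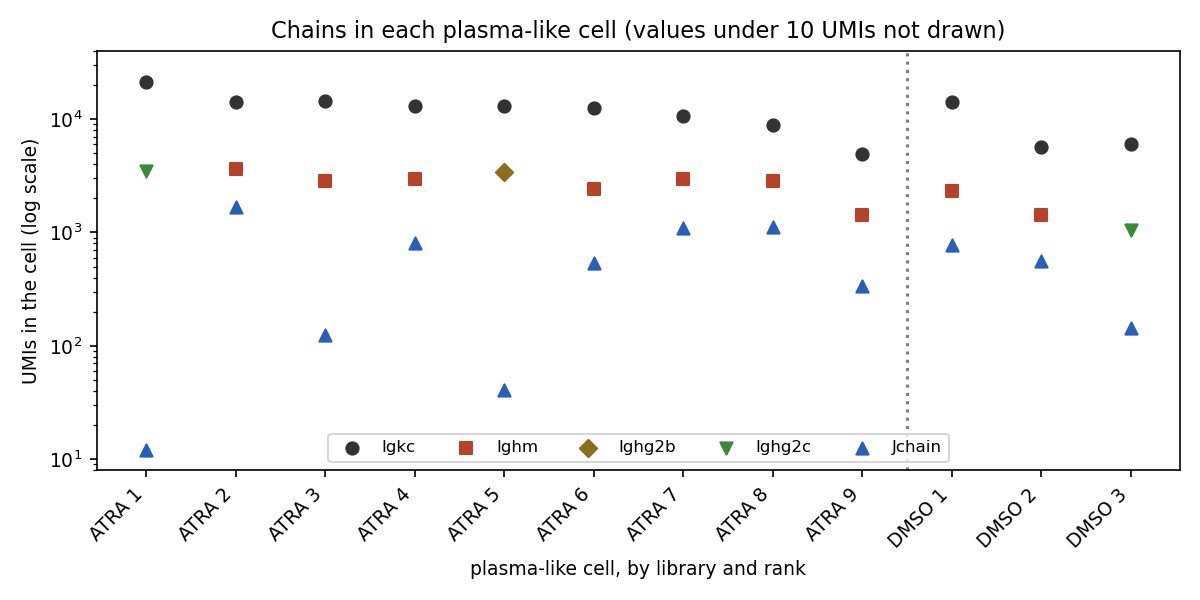
UMIs (log scale) of Igkc, Ighm, Ighg2b, Ighg2c and Jchain in each of the 12 plasma-like cells, numbered within each library by their summed UMIs, values under 10 not drawn. Each cell shows Igkc on top and 1 heavy chain below it, and Jchain lies between 124 and 1693 UMIs in the Ighm cells and at 12, 41 and 144 in the switched cells.

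The variable segments of the plasma-like cells differed from cell to cell. The 12 cells had 12 different pairs of leading Ighv and Igkv segments, with 10 different Ighv and 11 different Igkv segments among them. Igkv3-2 led in the ATRA+agonist cells 2 and 4, with 81 and 102 UMIs, beside Ighv1-26 in one and Ighv1-53 in the other. Both Ighg2c cells also held UMIs of the lambda segment Iglv1, 270 beside 192 of Igkv15-103 in the ATRA+agonist cell and 124 beside 175 of Igkv5-39 in the vehicle cell, although their lambda constant UMIs were 0.539% and 1.43% of the light-chain total. In the 9 Ighm cells Iglv1 reached at most 60 UMIs, and the Ighg2b cell held 4. Those 60 were in the ATRA+agonist cell 6, beside 71 of Igkv17-121, out of 134 light-chain segment UMIs. In the Ighg2c cells these totals were 477 with ATRA+agonist and 323 with vehicle, so Iglv1 was not particular to them.

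Single plasma-like cells held many of the UMIs of the leading segments. Over all B-lineage-like cells the 5 leading segments with ATRA+agonist were Iglv1 (390 UMIs, 270 of them in 1 cell), Ighv2-4 (267, with 266 in 1 cell), Igkv3-2 (209), Igkv15-103 (195, with 192 in 1 cell) and Igkv1-110 (163, with 133 in 1 cell). With vehicle they were Igkv5-39 (175), Iglv1 (146), Ighv5-12 (124), Igkv6-20 (104) and Igkv19-93 (53). Igkv5-39, Ighv5-12 and Igkv6-20 were each counted in 1 cell only. Without the plasma-like cells Igkv1-117 led in both libraries, with 32 UMIs in 13 of 631 cells, level with Ighv10-1, and 7 UMIs in 4 of 56 cells. At least 2 UMIs of a light-chain segment were found in 54 of those 631 cells, which fell on 25 different segments, and the most frequent, Igkv1-110, led in 8 cells.

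The other 687 B-lineage-like cells were clustered again without immunoglobulin genes and fell into 4 groups. The largest group carried 5 of 8 markers of conventional B cells, among them Fcer2a, Cr2, Ccr7 and Fcmr. A group of 88 cells carried 7 of 9 markers of B-1 cells (Mzb1, Il5ra, Zbtb32, Bhlhe41, Cd9, Itgam and Plscr1), innate-like B cells known from body cavities. Cd5 and Tnfrsf13b, also on that list, did not pass, and Cd5 had under 10 UMIs over all B-lineage-like cells. No marker of the list was among the 10 genes that led the group. Another group led by Dnm3, Nt5e and Fcer1g and one led by Pclaf, Hist1h1b and Hist1h2ap had under 3 markers of any list and were not named.

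The makeup of the libraries differed. Conventional B-like cells were 509 of 640 with ATRA+agonist (79.5%, 76.2 to 82.6) and 29 of 59 with vehicle (49.2%, 35.9 to 62.5). B-1-like cells were 88 of 640 (13.8%, 11.2 to 16.7) and 0 of 59, which allows a share of up to 5.08% at 3 cells and of up to 6.06% by the exact binomial interval. The Pclaf-led cells went the other way, with 5 of 640 (0.781%) and 24 of 59 (40.7%, 28.1 to 54.3). Dnm3-led cells were 29 and 3. Vpreb1, which encodes part of the surrogate light chain of B-cell precursors, had 30 UMIs in 2 of those 5 cells and 43 in 3 of those 24, and the recombinase gene Rag1 had 3 and 8 UMIs.

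Ighm and Ighd set these groups apart. In conventional B-like cells Ighm had a median of 6 UMIs per cell with ATRA+agonist and 7 with vehicle, and Ighd a median of 3 in both. Ighd made up 33.8% of the UMIs of Ighm and Ighd together (exact binomial interval 32.4 to 35.1) in the ATRA+agonist library and 25.2% (20.5 to 30.5) in the vehicle library. At least 1 UMI of each was found in 433 of 509 and 21 of 29 cells. Both genes were thus counted together in most conventional B-like cells.

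In B-1-like cells Ighm had a median of 31 UMIs (5 to 60) and Ighd a median of 0 (0 to 4). Ighd was 1.40% of the summed UMIs of the pair (0.998 to 1.91), and 25 of 88 cells had both. In the Dnm3-led cells the Ighd share was 6.39% (4.76 to 8.36) with ATRA+agonist. In the Pclaf-led cells it was 8.51% (5.73 to 12.1) with vehicle and 0 of 75 UMIs with ATRA+agonist, where the interval reaches 4.80%. The B-1-like cells were deeper, with a median of 10628.5 UMIs against 4887 in conventional B-like cells, but Ighm as CPM was also higher, at 2860 CPM against 1243 CPM, and Ighd lower, at 40.6 CPM against 633 CPM.

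Switched constant regions were rare outside the plasma-like cells. A cell's heavy-chain class was the chain with the most UMIs, with at least 2 required. No class could be given to 12 of 631 ATRA+agonist cells (1.90%, 0.986 to 3.30) and 7 of 56 vehicle cells (12.5%, 5.18 to 24.1). In conventional B-like cells these were 12 of 509 and 6 of 29. The shares below leave them out. Of 619 such ATRA+agonist cells with a class, 616 were Ighm or Ighd cells, 2 were Ighg2b cells and 1 was an Igha cell. All 49 vehicle cells with a class were Ighm or Ighd cells. The switched share was thus 0.485% (0.100 to 1.41) against 0%, with an upper limit of 7.25% set by the small number of vehicle cells, so no difference was detectable at this depth. With the plasma-like cells it was 5 of 628 (0.796%, 0.259 to 1.85) and 1 of 52 (1.92%, 0.0487 to 10.3).

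Ighg1 had 0 UMIs in every B-lineage-like cell of both libraries. Igha had 36 UMIs in 16 cells with ATRA+agonist, 12 of them in 1 conventional B-like cell and 11 spread over 10 of the 88 B-1-like cells at 1 or 2 each, and 1 UMI with vehicle. Ighg3, which is not among the 10 genes, had 34 and 2 UMIs, 14 of them in 9 of the 29 Dnm3-led cells of the ATRA+agonist library. The same cells held 18 of the 25 Ighg2b UMIs counted outside the plasma-like cells, in 6 cells. Ighe had 0 UMIs in both libraries.

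Among the light chains, Igkc had a median of 22 UMIs per conventional B-like cell with ATRA+agonist and 14 with vehicle, 32 per B-1-like cell and 41 per Dnm3-led cell. A cell was classed as lambda where Iglc1, Iglc2 and Iglc3 together had more UMIs than Igkc, with at least 2 required. No light-chain class could be given to 13 of 640 ATRA+agonist cells (2.03%) and 7 of 59 vehicle cells (11.9%). In conventional B-like cells these were 11 of 509 and 4 of 29. The shares leave them out. Lambda cells were 48 of 627 with ATRA+agonist (7.66%, 5.70 to 10.0) and 11 of 52 with vehicle (21.2%, 11.1 to 34.7). Within conventional B-like cells they were 29 of 498 (5.82%, 3.93 to 8.26) and 4 of 25 (16.0%, 4.54 to 36.1), and these intervals overlap. In B-1-like cells they were 17 of 87 (19.5%, 11.8 to 29.4).

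Lambda UMIs were also present in kappa cells, in amounts that differed between the groups. In the ATRA+agonist library they were 0.869% of the light-chain UMIs of plasma-like kappa cells (0.816 to 0.925), 11.7% in conventional B-like kappa cells (11.2 to 12.3), 20.4% in Dnm3-led kappa cells (18.5 to 22.3) and 32.8% in B-1-like kappa cells (31.4 to 34.2). All 70 B-1-like kappa cells had at least 2 lambda UMIs, and so did 311 of the 469 conventional ones. The lambda UMIs of the B-1-like kappa cells were divided over all 3 genes, with 362 of Iglc1, 635 of Iglc2 and 462 of Iglc3. In the 17 B-1-like lambda cells, in turn, Igkc made up 41.5% (38.0 to 45.1).

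Taken per cell, among kappa cells with 20 or more light-chain UMIs, the lambda share had a median of 33.0% in 66 B-1-like cells (8.70% to 50%) and exceeded 10% in 65 of them. In 334 conventional B-like cells of the same library the median was 8.58% (0% to 48.4%), with 140 above 10%. In 13 conventional B-like cells of the vehicle library it was 25.7% (5.88% to 44.0%), with 10 above 10%. The upper end is bounded at 50% by the way cells were classed. The strip plot of these shares shows that the groups overlap, with every plasma-like cell at or below 2.05%.

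**Figure D3:**
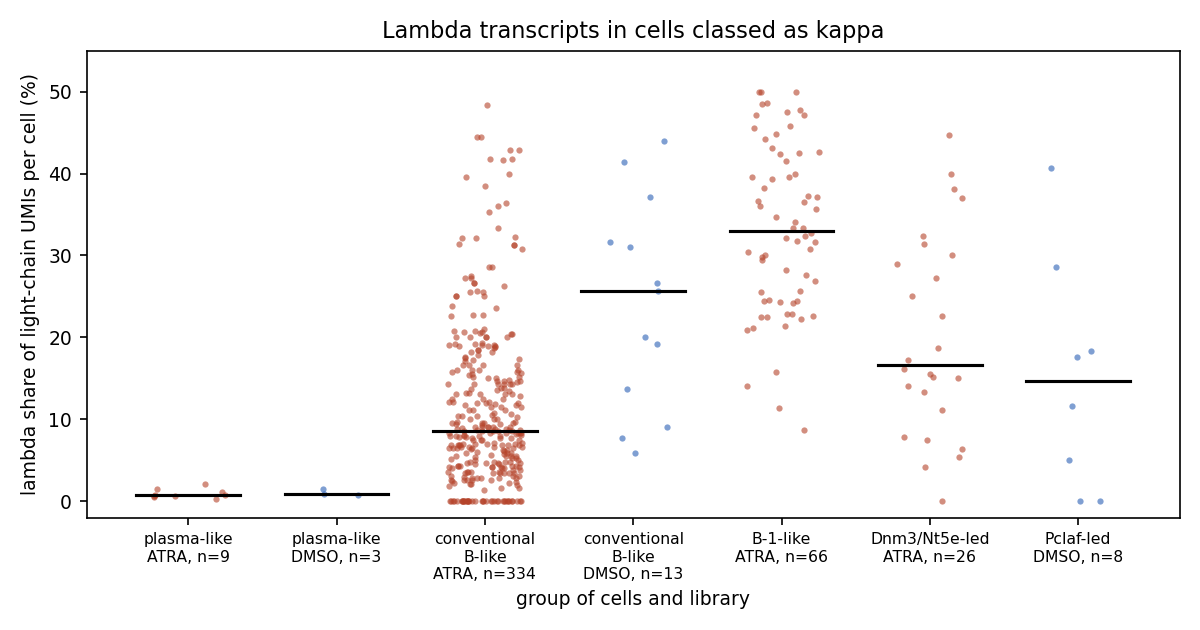
Lambda share of light-chain UMIs (%) in each kappa cell with at least 20 light-chain UMIs, by group of B-lineage-like cells and library, 1 point per cell, the black line at the median. Medians are 0.768% and 0.830% in plasma-like cells, 8.58% and 25.7% in conventional B-like cells of the ATRA+agonist and vehicle libraries, and 33.0% in B-1-like cells.

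The levels of the 10 genes in B-lineage-like cells were compared between the libraries as CPM of the summed UMIs. Igkc was at 31403 CPM with ATRA+agonist and 75901 CPM with vehicle, a log2 ratio of -1.27 (-1.29 to -1.25). Ighm was at 6250 and 12170 CPM, a log2 ratio of -0.96 (-1.01 to -0.91). Jchain was at 1388 and 4199 CPM (log2 ratio -1.60, -1.68 to -1.51). These 3 genes were thus lower per UMI with ATRA+agonist, in sums that the plasma-like cells dominate.

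Past 2-fold lower were Igkc, Jchain, Ighg2c (log2 ratio -1.82, -1.92 to -1.72) and Iglc2 (-1.06, -1.21 to -0.91), 4 of the 9 members that had 10 UMIs. Across all 10773 genes with 10 UMIs, 12.7% were past 2-fold lower and 8.61% past 2-fold higher, 21.3% in either direction. Past 2-fold higher were Ighg2b, with 3448 UMIs against 0, at least 98.1-fold against a limit of 3 UMIs in the vehicle sum, and Igha, at a log2 ratio of 1.62 that rests on 1 vehicle UMI (-0.95 to 6.96). The Ighg2b value was that of 1 cell. The Ighg2c ratio likewise compares 1 plasma-like cell per library, which held 3487 of 3488 UMIs with ATRA+agonist and all 1050 with vehicle. Ighd (0.48, 0.20 to 0.78), Iglc1 (-0.89, -1.08 to -0.70) and Ighm stayed within 2-fold.

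Without the plasma-like cells most of these differences shrank or turned. Igkc was then at 4477 CPM with ATRA+agonist and 3144 CPM with vehicle, and its log2 ratio went from -1.27 to 0.51 (0.41 to 0.61). Ighm was at 1752 and 2026 CPM (-0.21, -0.33 to -0.09) and Ighd at 453 and 373 CPM (0.28, 0.0019 to 0.58). Jchain was left with 3 UMIs in 631 cells and 0 in 56. Iglc1, at 352 and 835 CPM, was the only one of the 7 members with 10 UMIs that was past 2-fold (-1.24, -1.44 to -1.04), where 14.8% of 10621 genes were past 2-fold lower, 7.34% higher and 22.2% in either direction. In the vehicle library 1 cell held 60 of its 242 Iglc1 UMIs and another held 59.

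Conventional B-like cells, the only group of B-lineage-like cells with more than 25 cells in both libraries, showed kappa and lambda on opposite sides. Igkc was at 4780 CPM with ATRA+agonist and 3576 CPM with vehicle (log2 ratio 0.42, 0.29 to 0.55). Iglc1 was at 239 and 797 CPM (-1.74, -2.04 to -1.43) and Iglc2 at 345 and 849 CPM (-1.30, -1.58 to -1.01). Ighm was at 1243 and 1721 CPM (-0.47, -0.66 to -0.27) and Ighd at 633 and 581 CPM (0.12, -0.20 to 0.47). Iglc1 and Iglc2 were thus past 2-fold lower and no member was past 2-fold higher, where 12% of 9521 genes were past 2-fold lower, 6.72% higher and 18.7% in either direction. The 59 Iglc1 UMIs of 1 vehicle cell were part of a sum of 107.

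The other genes of the pathway were counted from lists. The lists below were chosen with earlier results of these data known, and their counts stand beside the 21.3% of all genes past 2-fold in either direction. Of the 13 genes of the B-cell receptor complex and B-cell identity, 11 were within 2-fold, with a median log2 ratio of 0.10 against -0.084 over all genes with UMIs in both libraries. The signalling chain Cd79a was at 0.34 (0.21 to 0.47), Bank1, an adaptor of receptor signalling, was past 2-fold higher (1.11), and the complement receptor Cr2 past 2-fold lower (-1.62). Of 15 antibody secretion genes, 6 were past 2-fold lower with ATRA+agonist (Sdc1, Derl3, Tnfrsf17, Txndc5, Fkbp11 and Creld2) and none higher. Without the plasma-like cells, 0 of the 13 with 10 UMIs were past 2-fold, where 22.2% of all genes were. The 9 plasma cell markers that picked those cells are all in this list, so the choice of cells largely set this outcome.

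Of the 12 genes of immunoglobulin transcription and recombination, 8 had 10 UMIs and 5 were past 2-fold lower with ATRA+agonist: Spib, Rag1, Vpreb1, Vpreb3 and Igll1. Vpreb3 was at 91.9 and 865 CPM (log2 ratio -3.23, -3.46 to -3.01). Igll1, which encodes the other part of the surrogate light chain, was at 2.90 and 76.3 CPM. These Igll1 values are 12 UMIs in 2 of 640 cells and 27 in 3 of 59, all of them Pclaf-led. Rag1 had 3 UMIs in 2 cells and 10 in 5, and Vpreb1 had 30 in 2 and 44 in 4. Of the 9 B-1 markers, 5 of the 8 with 10 UMIs were past 2-fold higher (Il5ra, Zbtb32, Bhlhe41, Cd9 and Plscr1), and this list also served to name the B-1-like group. In conventional B-like cells alone, 18.7% of all genes were past 2-fold in either direction. There 0 of the 6 B-1 markers with 10 UMIs were past 2-fold higher. Bhlhe41, with 14 and 2 UMIs, was past 2-fold lower. The median log2 ratio was -0.68 over the 5 with UMIs in both libraries, against -0.14 over all such genes. Of the 5 transcription and recombination genes with 10 UMIs in those cells, Spib and Vpreb3 were past 2-fold lower. Of 11 immunoglobulin receptors, 7 had 10 UMIs, among them the inhibitory receptor Fcgr2b, past 2-fold higher at 139 and 33.9 CPM, and Fcer1g and Trim21, past 2-fold lower.

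Igkc, Ighm, Igha and Jchain were also followed over 20 sums, 10 cell classes in each library. The correlations are of log2(CPM + 10), over points that share their libraries, and are a description only. Each class is summed whole, so genes confined to the B lineage can be alike here even if counted in different cells. For Jchain, 7235 of 7238 UMIs of B-lineage-like cells lay in the 12 plasma-like cells. The 5 genes most like Igkc were Tnfrsf13c (Pearson's r of 0.97), Bfsp2, Gm30211, Blk and Pou2af1. Those most like Ighm were Siglecg (0.98), Gm42031, Bank1, Cd72 and Bcl11a. Those most like Jchain were 2010309G21Rik, Pou2af1, Gm47782, Fcmr and Pax5, and for Igha, with 37 UMIs in all, they were 1810046K07Rik, Il5ra, Gm16028, AC133103.1 and AC125149.3. Gm30211 overlaps Igkc, and 2010309G21Rik overlaps Iglc1 and Iglc3.

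Outside the B lineage the 10 genes were counted at low levels. Free RNA in a droplet suspension can give UMIs in cells that do not transcribe a gene, and its part in these counts was not tested. In the 6 structural classes together (endothelial-, FAP-, MuSC-, tenocyte-, smooth muscle or pericyte- and glial-like cells, where FAP is a fibro-adipogenic progenitor and MuSC a muscle stem cell), Igkc had 139 UMIs in 27130974 with ATRA+agonist (5.12 CPM, 4.31 to 6.05) and 69 in 32285579 with vehicle (2.14 CPM, 1.66 to 2.70). That is 1.07 and 2.57 UMIs per 1000 Igkc UMIs in the B-lineage-like cells. A UMI of Igkc was seen in 2.54% and 0.713% of these cells, at median depths of 4217 and 4644 UMIs.

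Jchain had 11 and 5 UMIs in the structural classes and Ighg2c 8 and 1. Ighg1 and Igha had 0 in both libraries. Iglc1 and Iglc2 went the other way, with 1 and 5 UMIs with ATRA+agonist against 12 and 21 with vehicle, 20 of the latter in a single FAP-like cell. In barcodes with under 300 genes, which held medians of 5675.5 and 6884.5 UMIs, Igkc had 37 UMIs in 15285433 with ATRA+agonist (2.42 CPM) and 38 in 52901998 with vehicle (0.718 CPM). Over all named classes but the B lineage, 4 of the 7 members with 10 UMIs were past 2-fold higher with ATRA+agonist (Ighd, Ighg2c, Igkc and Jchain) and 2 past 2-fold lower (Iglc1 and Iglc2), where 3.12% of 20092 genes were past 2-fold higher, 5.94% lower and 9.06% in either direction. In the structural classes alone 3 of 5 were past 2-fold higher (Ighm, Igkc and Jchain) and the same lambda pair lower, where 2.12% of 19265 genes were higher, 5.96% lower and 8.08% in either direction.

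Ighm was counted in myeloid cells far more often than Igkc. In monocyte or macrophage-like cells Ighm had 944 UMIs in 350 of 521 cells with ATRA+agonist (162 CPM, 151 to 172) and 490 in 229 of 401 cells with vehicle (122 CPM, 111 to 133). Igkc had 74 UMIs in 31 cells (12.7 CPM) and 5 UMIs in 5 cells (1.24 CPM). No macrophage-like cell had more than 10 Ighm UMIs. Ighm was thus spread over most cells of this class in both libraries. Unnamed clusters held it too. The one led by Cma1, Mcpt4, Cpa3 and Tpsb2 was at 112 CPM with ATRA+agonist and 81.5 CPM with vehicle. The one led by Tenm2, Sfrp5, Cldn1 and Lypd2 was at 69.4 and 23.6 CPM.

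The ratio of the pair also differed between classes. Ighm was 16.6% of the UMIs of Ighm and Igkc together in B-lineage-like cells of the ATRA+agonist library (16.4 to 16.8) and 13.8% in those of the vehicle library (13.4 to 14.2), and 28.1% and 39.2% without the plasma-like cells. In barcodes under 300 genes it was 28.8% (17.1 to 43.1) and 28.3% (16.8 to 42.3). In monocyte or macrophage-like cells it was 92.7% (91.0 to 94.2) and 99.0% (97.7 to 99.7). In dendritic-like cells it was 78.7% (72.7 to 83.8) and 97.5% (91.2 to 99.7), and in neutrophil-like cells 71.2% (57.9 to 82.2) with ATRA+agonist, with 128 Ighm and 0 Igkc UMIs with vehicle.

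**Figure D4:**
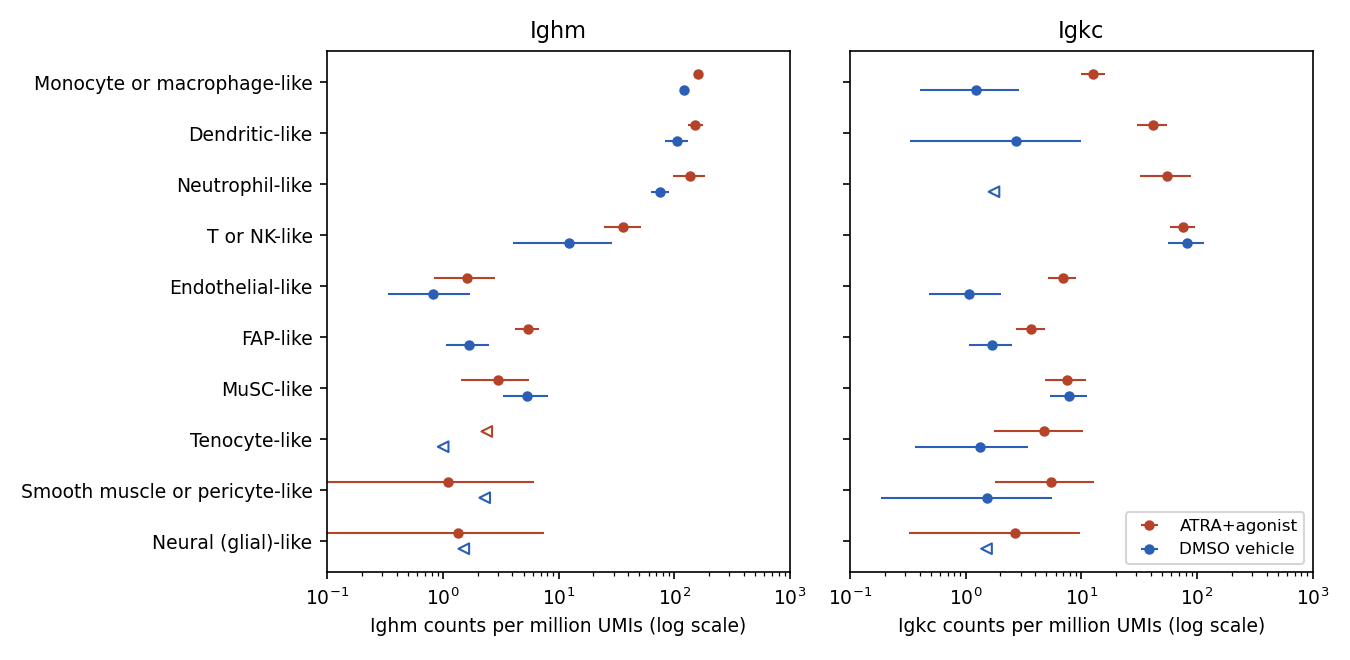
Ighm and Igkc in 10 cell classes outside the B lineage, in CPM on a log scale, 1 point per class and library with 95% Poisson intervals. Open triangles mark classes at 0 UMIs, drawn at the level of 3 UMIs, and lower interval ends under 0.1 CPM are outside the axis. Ighm lies at 75.2 to 162 CPM in the 3 myeloid classes of both libraries and under 6 CPM in the structural classes. Unnamed clusters and myonuclei-like cells are not drawn.

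After each cell was thinned to 1000 UMIs, an Ighm UMI remained in 15.8% (12.7 to 19.2) of the ATRA+agonist macrophage-like cells and in 11.0% (8.09 to 14.4) of the vehicle ones. The same thinning left 0.0978% and 0.134% of endothelial-like cells with an Ighm UMI, and 0 of 520 and 0 of 401 macrophage-like cells with a UMI of Cd79a. Ighd had 3 and 2 UMIs in the macrophage-like cells. The source of the Ighm UMIs was not tested.

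T or NK-like cells showed the reverse. Igkc had 65 UMIs in 35 of 104 cells with ATRA+agonist (75.7 CPM, 58.5 to 96.5) and 33 in 11 of 57 cells with vehicle (81.4 CPM, 56.0 to 114), higher in CPM than in any structural class of either library. Ighm had 31 and 5 UMIs there. After thinning to 1000 UMIs, 7.69% (3.38 to 14.6) and 7.02% (1.95 to 17.0) of T or NK-like cells had an Igkc UMI, against 0.538% and 0.179% of endothelial-like cells. In dendritic-like cells Iglc3 had 38 UMIs in 7 cells with ATRA+agonist and 10 in 2 cells with vehicle, with Iglc1 and Iglc2 at 0 in both.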

How the data were processed

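Single-cell transcriptomes of hindlimb muscle were deposited as 1 count matrix per library, 2 in all. Per the file headers, the authors made the UMI counts with Cell Ranger 7.2.0, and the values are whole-number counts per gene and barcode, not normalized. The build of the labels is GRCm38. Whether intronic reads entered the counts is not given in the sources used here. No column lacked a sample.

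Cells with 300 to 5000 genes, under 20% mitochondrial and under 0.25% hemoglobin beta UMIs were kept, and 7.5% of each library were removed as doublets by the share of simulated doublets among their neighbours. Both libraries were merged, scaled to 10000 UMIs per cell, and clustered by Louvain (resolution 0.8) on 30 principal components of 2000 variable genes, after 393 immunoglobulin genes had been left out. A cluster was named from at least 3 markers past 2-fold, and the B-lineage-like cells were clustered again at 0.4. The naming thresholds, the limit of 6 plasma cell markers and the second clustering were set after the data had been seen.

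UMIs were summed per class and library and given as UMIs per 1000000 (CPM). Intervals are exact Poisson, Clopper-Pearson or conditional binomial at 95%. A ratio of shares has a log-normal interval. With 1 library per group no test was made, and a gene was counted as past a fold of 2 where it had 10 UMIs. Depth was 65197625 and 109343486 UMIs before and a median of 4699 and 4845 UMIs per cell after filtering.

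Named were all 10 genes, Ighg3, Ighe, Iglc3 and Iglc4, the 5 variable segments with the most UMIs in each library, the 5 genes most like Igkc, Ighm, Igha and Jchain, and 5 lists. Segments of single plasma-like cells were named after their values had been seen. The members and lists were chosen with earlier results of these data known. Alternatives varied the doublet rate, the filters, the resolution, the clustering genes, the assignment of cells, the depth and the class minimum. Python 3.11.15, numpy 2.4.6, scipy 1.17.1, scikit-learn 1.9.0, python-igraph 0.11.9 and pandas 2.3.3 were used, and the scripts were tested on simulated data. Some results are not reported here because the items they need are withheld.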

Additional observations from a re-analysis of the deposited data

Results flagged for a closer look

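UMIs of the 10 genes were also present in barcodes and clusters that no comparison used. Barcodes with under 300 genes held 58 of them with ATRA+agonist and 55 with vehicle. Barcodes over the hemoglobin limit held 805 and 9525. The clusters that were not named held 249 and 37.

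Most of the 9525 vehicle UMIs belonged to 1 barcode. It held 8445 UMIs of the 10 genes, among them 6186 of Igkc, 1891 of Ighm and 329 of Jchain, with 8 of 9 plasma cell markers and hemoglobin beta at 27.4% of its UMIs. In the ATRA+agonist library 1 removed barcode, with 5044 genes, held 11417 UMIs, among them 7869 of Igkc, 3466 of Ighm and only 4 of Jchain, with 9 of 9 plasma cell markers. Its leading segments, Ighv1-53 and Igkv4-55, were those of the eighth plasma-like cell of the same library, which held 1107 Jchain UMIs. What the shared segments come from was not tested.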

How the results depend on the processing

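No paired analysis was possible because there is 1 library per group, and no library could be left out. Of the alternatives, 15 were listed at the start and 4 chosen after seeing the data. The ratio of B-lineage-like shares (10.9) stayed above 1 under those that recompute it, which leaves out thinning, the mean over cells, the UMI minimum and the choices of other cells. It was 3.88 without doublet removal, 313 with 15% of cells removed as doublets (622 against 2 cells), 24.9 without the hemoglobin filter, 8.26 under 10% mitochondrial UMIs, 19.0 at resolution 1.6, 19.6 with immunoglobulin genes kept for clustering, 5.17 with cells assigned by their own markers and 17.7 for conventional B-like cells. It was 8.58 with at least 500 genes, 10.9 at resolution 0.4 and 11.3 without plasma-like cells. Plasma-like cells were 0 and 0 among B-lineage-like cells under 15% doublets, resolution 1.6 and immunoglobulin genes kept, since their barcodes then fell in clusters named otherwise.

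The log2 ratio of the summed 10 genes in B-lineage-like cells (-1.21) was, in the order of those first 7 settings, -0.25, 1.88, -1.88, -0.82, -0.11, -0.090 and -0.64. It was -0.94 with at least 500 genes, -1.10 after thinning, -1.07 as a mean over cells, 0.078 without plasma-like cells and -0.054 in conventional B-like cells. Igkc turned to 1.79 with 15% doublets, 0.31 at resolution 1.6 and 0.28 with immunoglobulin genes kept. Igkc also turned to 0.51 without plasma-like cells and 0.42 in conventional B-like cells. Iglc2 turned to 0.39 (-1.46 to 3.44) with 15% doublets, where 2 vehicle cells were left. The 10 genes in other classes (1.05) were at 2.20, 2.19 and 2.22 with 15% doublets, resolution 1.6 and immunoglobulin genes kept, where the plasma-like barcodes count among those classes. They were at 1.21 by own markers, 1.25 thinned, 1.31 without cells holding a B-cell marker and 1.18 without myeloid classes.

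The vehicle switched share (1.92%) was 0 at resolution 1.6, with immunoglobulin genes kept, without plasma-like cells and in conventional B-like cells, and gave no value with 15% doublets. The vehicle lambda share (21.2%) was 0 with 15% doublets, where 2 vehicle cells were left and the interval reaches 97.5%. Other causes were not tested. With 59 vehicle cells and 1 library per group, depth limits every vehicle share, and the spread between mice is unknown.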

Other observations

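Assignment by a cell's own marker UMIs gave 632 and 56 cells in common with the clusters. It added 46 ATRA+agonist and 76 vehicle cells, none of which held a Cd79a UMI.

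Outside the B lineage, 11 of 5833 other named cells with ATRA+agonist and 3 of 6578 with vehicle held 10 or more UMIs of the 10 genes, with 49 and 47 as the highest. In each library 1 of the other cells had 6 or more plasma cell markers, and both held 0 UMIs of the 10 genes. In myonuclei-like cells, present in the ATRA+agonist library only (229 cells, against 0 with vehicle), Ighm had 20 UMIs (52.6 CPM) and Igkc 2 UMIs (5.26 CPM).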
